A study of Mus musculus with 25 samples.

Results

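The mitochondrial ribosomal protein genes were taken as all gene symbols that begin with Mrpl or Mrps followed by a digit, and 73 of the 8829 genes of the muscle table met this rule. Of these, 47 carried an Mrpl symbol, for the large ribosomal subunit, and 26 an Mrps symbol, for the small subunit. Messenger RNA was measured in the gastrocnemius of 25 male SAMP8 mice, an inbred line with accelerated senescence, each with its own QuantSeq 3′ library. From 8 months of age and for 3 months, 14 mice (thymol) were given thymol in corn oil by repeated oral gavage, at 20 mg/kg body weight, and 11 mice (control) the corn oil vehicle. All animals were of this strain and of the same sex, so no group of another strain or age stands beside them. The comparison asks whether a compound studied as an activator of mitophagy changed the mRNAs of the mitochondrial protein synthesis machinery in ageing muscle.

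Mitochondria keep a ribosome of their own, which makes the few respiratory chain subunits encoded in mitochondrial DNA. Its ribosomal RNAs are transcribed in the organelle, whereas every one of its proteins is encoded in the nucleus, made in the cytosol and imported. Since most respiratory chain subunits are nuclear too, the nuclear genes of the mitochondrial ribosome and those of the respiratory chain are both needed to build the same complexes, and muscle is a tissue rich in them.

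The muscle label held in the expression data, as all 8 skeletal muscle marker genes were in the table and their mean level lay between 12.6 and 13.1 log2 CPM in every mouse. A library held between 4463818 and 9463418 reads on the genes of the table (group medians 7554333 in control and 7479077 in thymol mice). The study's methods report that a principal component check found no outliers, without naming the libraries it covered. Earlier results on these libraries placed control 18, control 19 and thymol 20 apart on principal components. The main counts and means, the r with the nuclear respiratory chain mean and the fold changes of named members were also computed without these mice. The ribosomal RNAs of the organelle (mt-Rnr1 and mt-Rnr2) were not in the table, and Mrps36 was not analysed here. Values are log2 CPM (the log2 of CPM, reads scaled to a fixed library total, after TMM scaling of the libraries, with a small number of reads added). A QuantSeq read comes from the 3′ end of a transcript, so that levels of different genes can be compared without division by length. In bulk tissue, fewer cells or fibres of a kind and less RNA per cell cannot be told apart.

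The promoters of the family were examined first, since they show what the genes have in common apart from their products. Of the 73 genes, 64 had an entry in the RefSeq promoter table (build GRCm38.p6, 250 bases before to 50 bases after the start), with 70 promoters in all. Each was searched on both strands for the exact letters of 5 short motifs: AAGATGGC for YY1, CCGGAAGT for ETS factors such as GABPA, GCGCATGC for NRF-1, TGACGTCA for the cAMP response element and TCAAGGTC for the oestrogen-related receptors. The NRF-1 letters can overlap their own reverse complement, and such a pair was counted as a single promoter with the motif. YY1 letters were found in 12 of the 70 promoters (17.1%), against 4.76% of the 9105 promoters of genes in the table and 2.75% of all 32851 promoters. ETS letters were found in 12 (17.1%, against 8.48% and 3.89%) and NRF-1 letters in 7 (10%, against 5.49% and 2.71%). The cAMP response element was present in 2 promoters (2.86%, against 3.05% and 1.79%) and the oestrogen-related receptor letters in 1 (1.43%, against 0.703% and 1.05%). At least 1 of the 5 was present in 41.4% of the members' promoters, in 29 genes, against 20.5% of the table's promoters and 11.3% of all promoters. In 55 promoters of nuclear respiratory chain genes the shares were 14.5% for YY1, 7.27% for ETS and 12.7% for NRF-1 letters. For the cAMP response element and the oestrogen-related receptor letters they were 7.27% and 3.64%. The YY1 and NRF-1 shares were thus not particular to the family. These are matches of letters only, and binding was not measured.

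Of the promoters with a match, 5 are given 5′ to 3′ with the motifs in capitals, chosen because they show the motif types or belong to genes whose values are described in detail. Mrps7, at chr11:115603890-115604189 (plus strand), and Mrpl42, at chr10:95501900-95502199 (minus strand), carry YY1 letters just past the start. Mrpl22, at chr11:58171414-58171713 (plus strand), carries NRF-1 letters. Mrpl33, at chr5:31613701-31614000 (plus strand), carries NRF-1 and ETS letters side by side. Mrpl32, at chr13:14612988-14613287 (minus strand), carries several NRF-1 matches and a YY1 match on the opposite strand.
Mrps7: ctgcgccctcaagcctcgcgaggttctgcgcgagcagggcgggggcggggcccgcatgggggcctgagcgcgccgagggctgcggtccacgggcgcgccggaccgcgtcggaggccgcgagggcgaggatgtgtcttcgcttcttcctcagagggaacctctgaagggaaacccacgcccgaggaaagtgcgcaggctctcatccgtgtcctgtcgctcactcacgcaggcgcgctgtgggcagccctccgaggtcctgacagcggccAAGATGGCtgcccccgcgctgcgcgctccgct
Mrpl42: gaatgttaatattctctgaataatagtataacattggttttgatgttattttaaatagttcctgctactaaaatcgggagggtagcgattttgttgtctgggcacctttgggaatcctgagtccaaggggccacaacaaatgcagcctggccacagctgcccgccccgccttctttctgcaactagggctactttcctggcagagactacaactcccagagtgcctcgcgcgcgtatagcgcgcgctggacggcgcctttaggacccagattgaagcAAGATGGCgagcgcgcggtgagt
Mrpl22: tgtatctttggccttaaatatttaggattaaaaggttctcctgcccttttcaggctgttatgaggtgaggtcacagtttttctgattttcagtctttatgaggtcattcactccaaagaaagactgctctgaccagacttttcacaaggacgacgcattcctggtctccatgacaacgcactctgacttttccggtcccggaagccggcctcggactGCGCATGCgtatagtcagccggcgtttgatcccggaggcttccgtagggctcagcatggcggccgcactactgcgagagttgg
Mrpl33: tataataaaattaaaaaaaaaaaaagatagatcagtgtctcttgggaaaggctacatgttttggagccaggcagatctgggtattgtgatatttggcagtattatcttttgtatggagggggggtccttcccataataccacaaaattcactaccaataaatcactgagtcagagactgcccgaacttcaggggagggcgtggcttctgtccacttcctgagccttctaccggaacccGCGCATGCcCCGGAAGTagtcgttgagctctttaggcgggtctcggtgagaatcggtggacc
Mrpl32: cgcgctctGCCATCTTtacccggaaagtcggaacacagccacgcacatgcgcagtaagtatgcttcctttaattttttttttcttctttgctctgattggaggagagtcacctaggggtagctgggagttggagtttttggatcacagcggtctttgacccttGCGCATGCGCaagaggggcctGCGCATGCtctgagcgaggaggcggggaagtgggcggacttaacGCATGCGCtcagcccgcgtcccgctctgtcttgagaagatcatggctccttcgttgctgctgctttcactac

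The family was expressed at moderate levels in this muscle. Mean levels ran from 2.11 log2 CPM (4.32 CPM) for Mrps33 to 7.32 log2 CPM (160 CPM) for Mrpl42, with a median of 4.90 log2 CPM (29.8 CPM) against 4.09 log2 CPM over all genes of the table. In total 61 of the 73 genes lay above the table's median level, 41 of the 47 large subunit genes and 20 of the 26 small subunit genes. Together they took 0.260% to 0.324% of the reads in a mouse, with a median of 0.276%. The highest mean levels after Mrpl42, which has no bacterial counterpart, were those of Mrpl34 (6.85 log2 CPM), Mrps15 (6.74), Mrpl12 (6.73) and Mrpl14 (6.69), all descended from bacterial ribosomal proteins. The order of Mrps15, Mrpl12 and Mrpl14 is not fixed by these data, as their levels differed by less than their SD over mice. The lowest levels after Mrps33 were those of Mrpl22 (2.65 log2 CPM) and Mrpl9 (2.68), which were indistinguishable, followed by Mrpl41 (10.6 CPM) and Mrpl19 (3.42 log2 CPM).

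The counts set the precision of these levels. The median mouse had 30 reads on Mrps33 and 1203 on Mrpl42, and the median gene had 220. Over the 25 mice the SD of log2 CPM ran from 0.097 (Mrps15) to 0.62 (Mrps12) with a median of 0.20, against 0.21 for the 1643 genes of the table with levels in the middle range of the family. Counting error alone would give a median SD of 0.099, and the measured SD was 2.06 times the counting SD in the median gene, with a range of 1.43 to 6.63.

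For some members the reads are harder to assign. The last 500 bases of the transcript were compared with all other annotated transcripts in words of 31 bases, and 17 of the 73 genes shared over 10% of their words with all other genes combined, the gene with the most shared words being a processed pseudogene in most of them. The largest share was that of Mrpl22, with 58.5% of the words also in Gm6997, and reads from such stretches may have been discarded or split in counting. In 14 genes the last 500 bases overlapped a gene on the opposite strand, among them Mrps7 with Mif4gd and Mrpl12 with Gm16755. The kit keeps strand, but the strand setting of the counting was not given in the sources used here. Levels of these genes are uncertain to that degree.

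By limma with Benjamini-Hochberg adjustment over all 8829 genes, no mitochondrial ribosomal protein gene passed an adjusted p of 0.05 between thymol and control mice, and the smallest adjusted p in the family was 0.9999. No gene of the table passed either (0%). At an unadjusted p under 0.05, 4 of the 73 genes (5.48%) passed, against 3.53% of all genes, and voom on the recovered reads gave 0 at the adjusted and 3 at the unadjusted threshold. All 4 were higher in thymol mice, where the share over all genes was 1.83% in that direction and 1.7% in the other. This count was 1 without control 19 or without thymol 20, and 2 without any of control 1, control 15, control 27, thymol 3, thymol 16 or thymol 22. It was 0 with the first number of the label as a block. Only 7 first numbers occur in both groups, so mice with any other first number add nothing to the estimate under this block.

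The intervals show how large a difference could have been missed. The log2 fold changes ran from -0.15 (Mrps35) to 0.28 (Mrpl22), and the 95% intervals of 62 of the 73 genes lay wholly within 0.3 on either side of 0. For 71 of the 73 they lay within 0.5, the exceptions being Mrpl22 and Mrps12. The median SE was 0.084 on the log2 scale, against 0.11 over all genes. The groups overlapped in every member (0 of 73 without overlap), and the share over all genes is not given here.

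**Figure D1:**
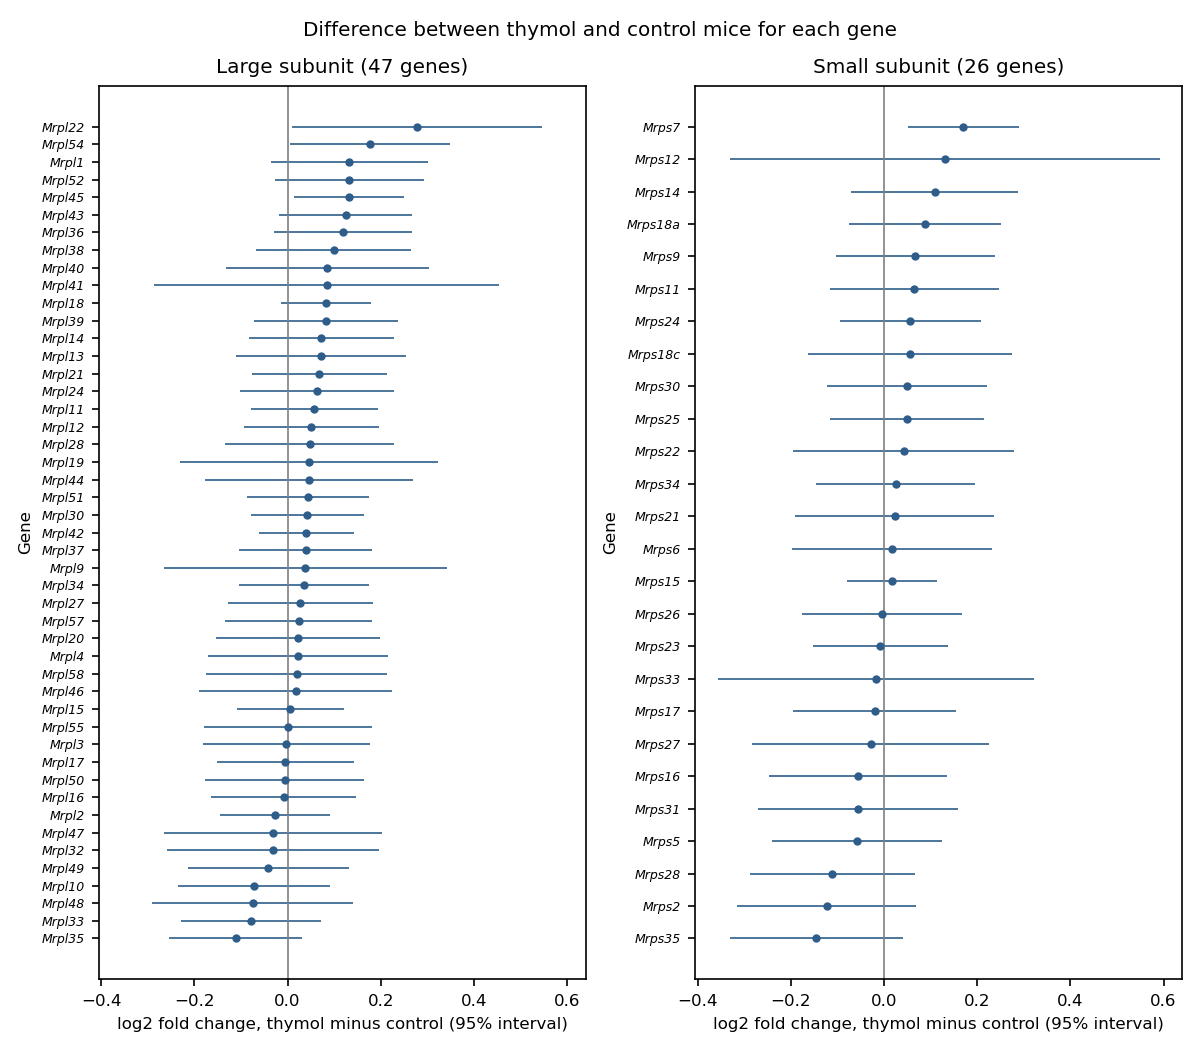
Difference in log2 CPM between thymol (n = 14) and control mice (n = 11) for the 47 large subunit genes (left) and 26 small subunit genes (right), with points for the limma estimate and bars for its 95% interval. The intervals of 4 genes, Mrpl22, Mrpl45, Mrpl54 and Mrps7, lie above 0 before adjustment, and none lies below 0.

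More members had a positive than a negative difference. The estimate was above 0 in 50 of the 73 genes (68.5%), against 49.6% of all genes, with 35 of 47 in the large subunit and 15 of 26 in the small subunit. The median log2 fold change was 0.038, against -0.0014 over all genes, with 0.040 in the large and 0.020 in the small subunit. Members share their mice, so that the count of signs is a description. The SE of a single gene does not measure the spread of these medians. The mean over the members, described below, differed by 0.031 (SE 0.034). Without control 18, control 19 and thymol 20 the median was 0.0055, and without control 19 alone it was 0.016. The lean was not particular to the family. Of 80 nuclear genes of the respiratory chain and ATP synthase, 61 had an estimate above 0 and 19 below, with a median of 0.043.

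Mrps7, a protein of the small subunit head, had the smallest p of the family. Its levels were 4.89, 5.15 and 5.31 log2 CPM (lowest, median and highest) in control and 5.12, 5.34 and 5.57 in thymol mice. The ranges overlapped between 5.12 and 5.31, with 12 of the 14 thymol mice above the control median. The log2 fold change was 0.17 with an SE of 0.058 (limma, p = 0.00627 before adjustment, adjusted p = 0.9999).

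Mrpl45, which lies at the exit of the peptide tunnel and faces the inner membrane, was at 5.42, 5.68 and 5.93 log2 CPM in control and 5.60, 5.82 and 6.04 in thymol mice. Of the 14 thymol mice 13 lay above the control median, and thymol 16 and thymol 20 lay above every control, while the 3 lowest mice were controls. The log2 fold change was 0.13 (SE 0.058, limma, p = 0.0299 before adjustment, adjusted p = 0.9999). Mrpl54, a protein particular to mitochondrial ribosomes, was at 5.37, 5.82 and 6.28 log2 CPM in control and 5.73, 6.04 and 6.28 in thymol mice. Both groups reached 6.28, and 11 of the 14 thymol mice lay above the control median. The log2 fold change was 0.18 (SE 0.084, limma, p = 0.0448 before adjustment, adjusted p = 0.9999).

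Mrpl22, whose bacterial counterpart lines the peptide tunnel, had the largest difference of the family and also one of the lowest counts, a median of 48 reads per mouse. It was at 2.06, 2.49 and 2.97 log2 CPM in control and 2.26, 2.73 and 3.50 in thymol mice. Thymol 3, thymol 11 and thymol 16 lay above every control and control 14 and control 18 below every thymol mouse, and the other mice of both groups overlapped. The log2 fold change was 0.28 (SE 0.13, limma, p = 0.0431 before adjustment, adjusted p = 0.9999).

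In the other direction no member passed the unadjusted threshold. Mrpl35, a protein of bacterial descent in the large subunit, was at 5.08, 5.32 and 5.49 log2 CPM in control and 4.93, 5.20 and 5.49 in thymol mice. Mrps35, a mitochondria-specific protein of the small subunit, was at 4.33, 4.58 and 5.13 in control and 4.12, 4.57 and 4.73 in thymol mice. The groups overlapped widely in both genes, and the 3 highest Mrps35 levels belonged to control 18, control 14 and control 32. The log2 fold changes were -0.11 (SE 0.070, limma, p = 0.120 before adjustment) for Mrpl35 and -0.15 (SE 0.091, limma, p = 0.121 before adjustment) for Mrps35.

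Members with particular functions had small differences, none past the unadjusted threshold (limma). Mrpl12, which also binds the mitochondrial RNA polymerase, had a log2 fold change of 0.051 (95% interval -0.094 to 0.20). Mrpl58, the peptidyl-tRNA hydrolase that rescues stalled ribosomes, had 0.020 (-0.17 to 0.21). In Mrps18a all 14 thymol mice lay above the control median, within a wide control range. Mrps30 and Mrps18a, which carry small subunit names but sit in the large subunit of the mammalian structure, had 0.049 (-0.12 to 0.22) and 0.089 (-0.075 to 0.25). Mrpl42, the most abundant member, had one of the narrowest intervals, -0.062 to 0.14 around 0.040, and Mrpl18, whose bacterial counterpart holds the 5S ribosomal RNA, one of -0.013 to 0.18 around 0.083.

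**Figure D2:**
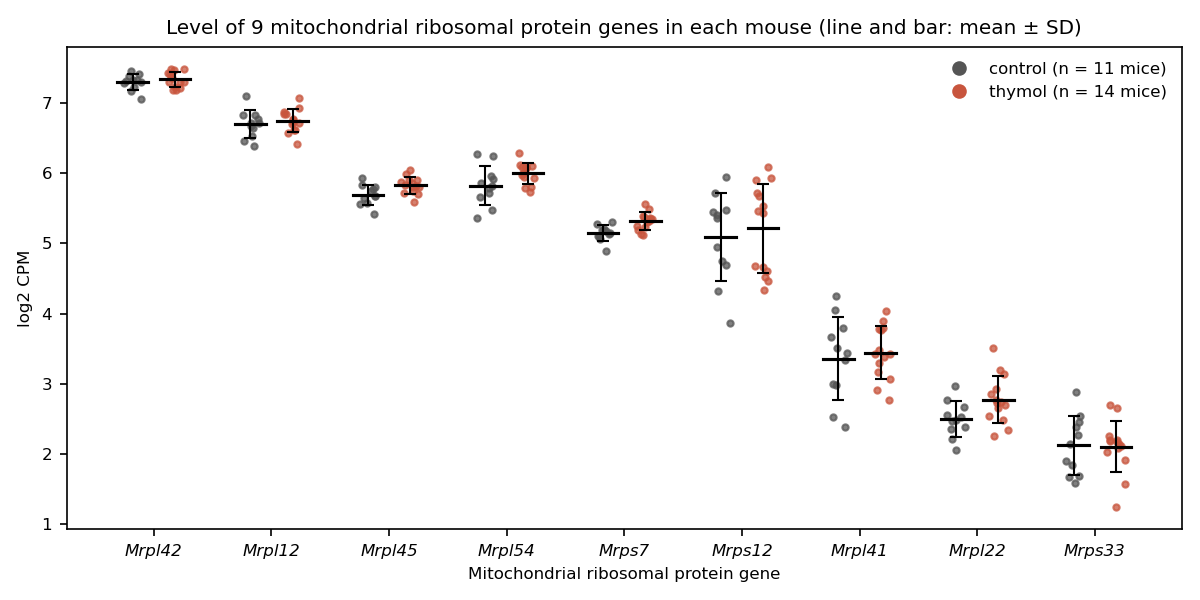
Level in log2 CPM of 9 mitochondrial ribosomal protein genes in each control mouse (grey, n = 11) and thymol mouse (red, n = 14), with lines and bars for the mean ± SD of the group. The 2 groups overlap in every gene, and Mrps12 spreads over more than 2 log2 units in both groups together.

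The members' mean deviation from their own means was -0.017 ± 0.091 log2 (SD) in the 11 control mice and 0.014 ± 0.075 (SD) in the 14 thymol mice. The difference of 0.031 (SE 0.034) was smaller than the spread between mice of either group, with 10 of the 14 thymol mice above the control median. It was 0.011 without control 18, control 19 and thymol 20, and 0.019 without control 19 alone. The lowest means were those of control 19 (-0.14) and control 1 (-0.13) and the highest those of control 14 (0.17) and thymol 11 (0.11), so the control mice held both ends of the range. In thymol 11, 61 of the 73 genes were above their own mean over the mice, in control 14, 60 were, and in control 19 only 16.

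The subunits moved together from mouse to mouse. The mean of the large subunit genes and that of the small subunit genes had a Pearson r of 0.85 over the 25 mice, whose values share their library and scaling. The difference between the subunits (large minus small) was -0.016 ± 0.034 (SD) in the 11 control mice and 0.012 ± 0.052 (SD) in the 14 thymol mice. These differ by 0.028 (SE 0.017), and the groups overlapped, with thymol 34 lowest (-0.10) and thymol 11 highest (0.093).

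**Figure D3:**
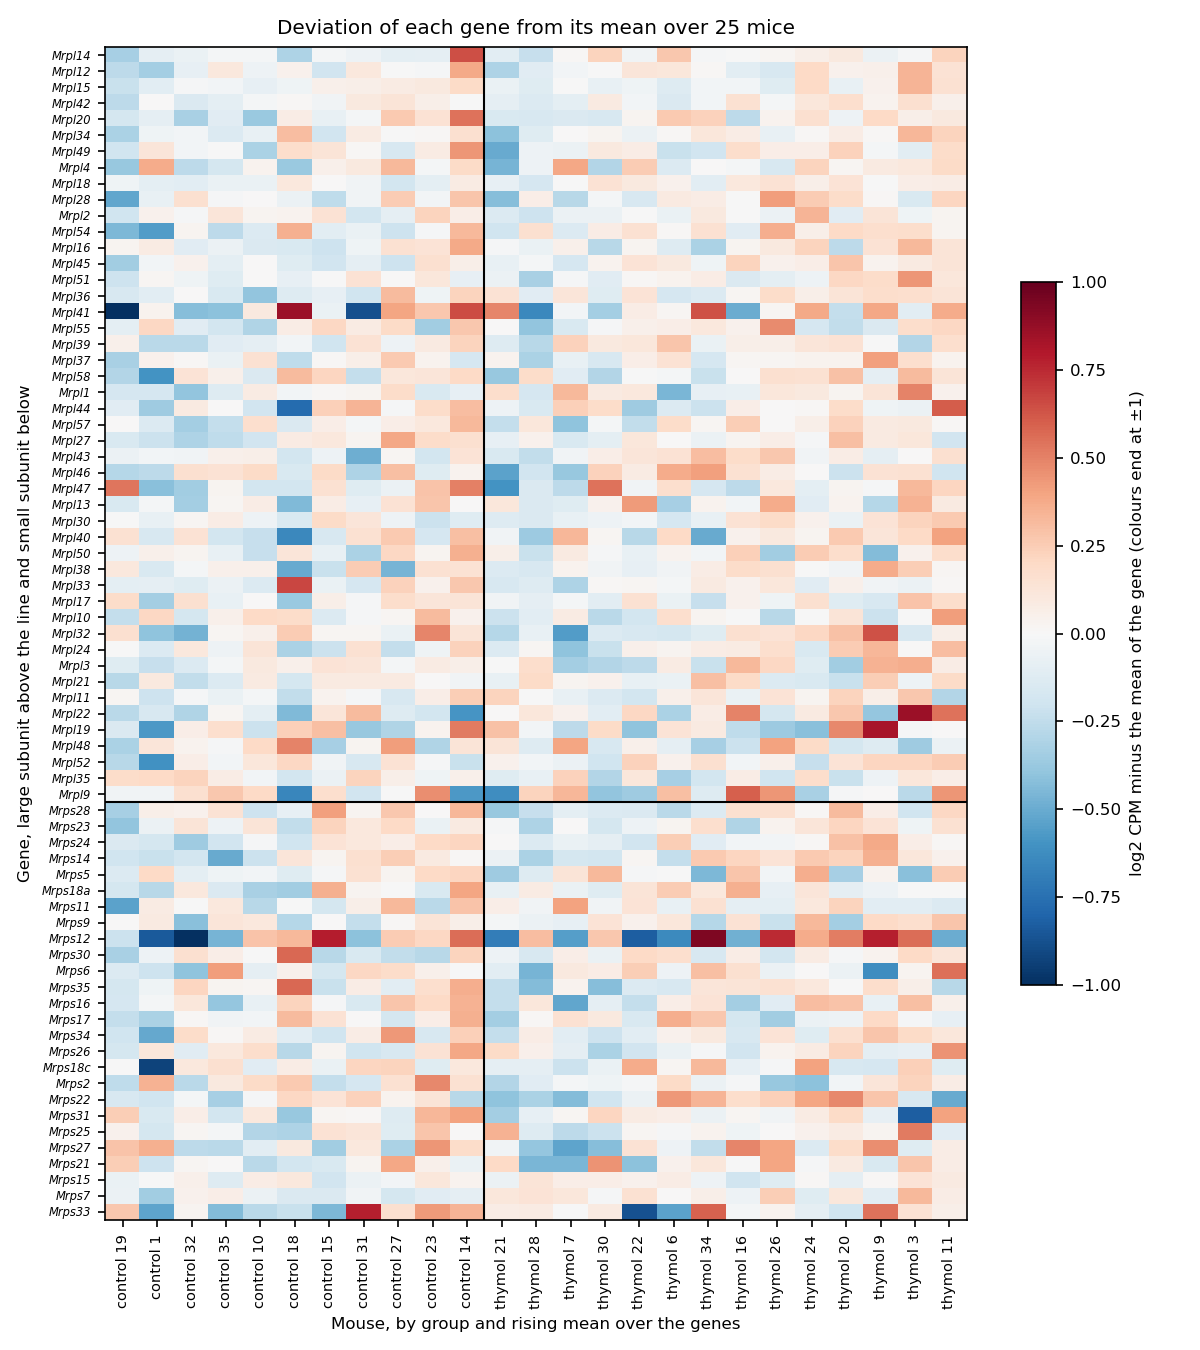
Deviation of each of the 73 genes (rows) from its mean over the mice, in log2 CPM, in 11 control and 14 thymol mice (columns, ordered within each group by rising mean over the genes), with large subunit genes above the line and small subunit genes below, each ordered by their correlation with respiratory chain genes. The end columns of each group show most genes on the same side, and Mrps12, Mrpl41 and Mrps33 vary most from mouse to mouse.

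The clearest pattern in the family was its co-variation with the nuclear genes of the respiratory chain and ATP synthase. Over 25 mice, the mean of the 73 genes had r = 0.82 (Spearman's rho = 0.77) with the mean of 80 nuclear respiratory chain genes. The r was 0.83 among control and 0.79 among thymol mice, and 0.81 with the group means removed. Without control 14 and control 19, the mice farthest from the median of the family mean, it was 0.74 (rho = 0.71). By subunit, r over the 25 mice was 0.84 for the mean of the large and 0.71 for that of the small subunit genes. All of these means come from the same libraries and their scaling, which by itself can raise r, so the same value is given for other lists below.

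By complex, r with the family mean was 0.85 for complex I (37 genes), 0.69 for complex II (4 genes), 0.76 for complex III (9 genes), 0.71 for complex IV (14 genes) and 0.75 for complex V (16 genes). The differences between these values were not tested, and the complex II mean rests on only 4 genes. For the 7 mRNAs of the mitochondrial genome in the table, which the mitochondrial ribosome translates, r was 0.37 (0.19 without control 14 and control 19). The cytosolic ribosomal protein genes (44) had r = 0.43 and the proteasome genes (31) r = 0.52. Without control 14 and control 19 these values were higher, 0.50 and 0.63. Over all 25 mice, the small subunit mean had r = 0.60 with the proteasome genes and 0.71 with the nuclear respiratory chain genes. For the large subunit mean these values were 0.45 and 0.84. Without control 14 and control 19 the order turned for the small subunit mean, 0.70 and 0.59. It stayed for the large subunit mean, 0.54 and 0.77. The lists differ in size and abundance, which also affects r.

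**Figure D4:**
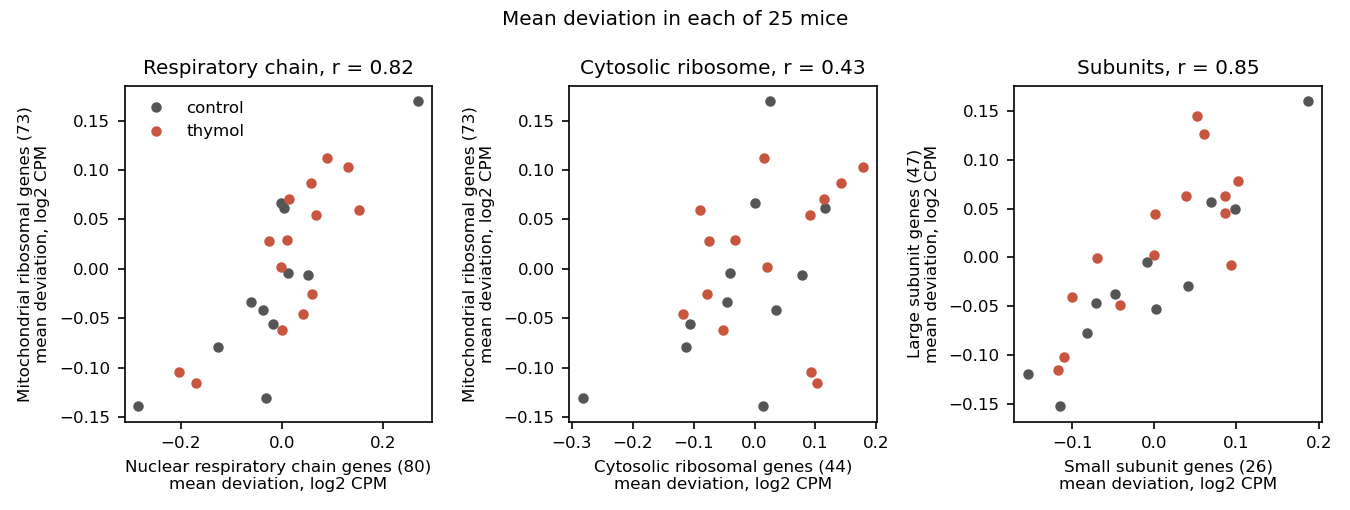
Mean deviation in log2 CPM of the 73 mitochondrial ribosomal genes against that of 80 nuclear respiratory chain genes (left, r = 0.82) and of 44 cytosolic ribosomal genes (middle, r = 0.43), and of the large against the small subunit genes (right, r = 0.85), with 1 point for each control (grey) or thymol (red) mouse. Both groups lie along the same direction in the left panel, with control 14 at the upper and control 19 at the lower end.

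Single genes gave the same picture. Of the 73 genes, 71 had a positive r with the respiratory chain mean, with a median of 0.34. It was -0.024 for the genes outside both the family and the nuclear respiratory chain list. The highest values were those of Mrpl14 (0.75), Mrpl12 (0.72) and Mrpl15 (0.71), all abundant genes of the large subunit. Mrpl9 (-0.12) and Mrps33 (-0.0046) were below 0, both among the least abundant members, and Mrps7 was at 0.0026 in spite of a median of 280 reads per mouse.

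From the opposite side, the 10 genes outside the family that followed its mean most closely were Uqcr10 (r = 0.81), Tspan3 (0.79), Fitm1 (0.78), Atp5f1e (0.78), Ndufc2 (0.78), Slc25a4 (0.77), Atp5mj (0.77), Txn2 (0.76), Uqcrq (0.76) and Cox5a (0.76). Of these, 6 are subunits of respiratory complexes or ATP synthase, Slc25a4 is the adenine nucleotide carrier of the inner membrane, Txn2 is the mitochondrial thioredoxin, Fitm1 takes part in lipid droplet formation and Tspan3 is a tetraspanin. Among the 50 most similar genes 30 were on the nuclear respiratory chain list, among the 100 most similar 45, and among the 200 most similar 55 of its 80 genes. The cytosolic ribosome list had 0, 0 and 1 gene in the same ranks, and the proteasome list 0, 0 and 2. The lowest r belonged to Ppp1r12a (-0.79), the regulatory subunit of myosin phosphatase, followed by Bptf (-0.76), a subunit of a chromatin remodeller, and Spaca6 (-0.75), Purb (-0.70) and Sbf2 (-0.69).

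**Figure D5:**
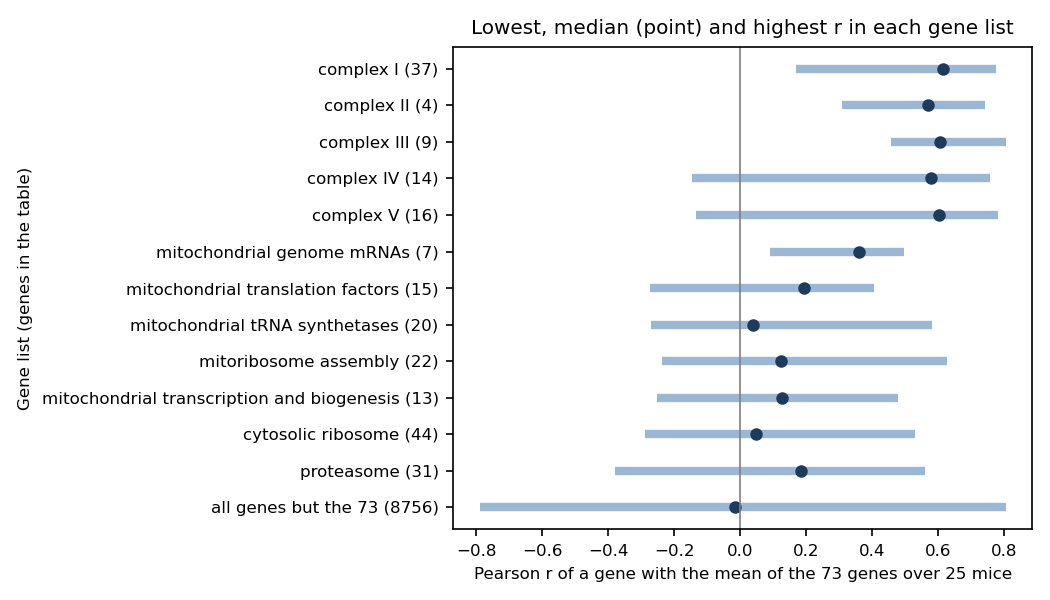
Pearson r over 25 mice between single genes and the mean of the 73 mitochondrial ribosomal protein genes, with the bar from the lowest to the highest gene and the point at the median of each list. The medians of the 5 respiratory complexes lie between 0.57 and 0.61, and those of the other lists between -0.015 and 0.36.

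Transcript length, library depth and the marker genes of other cell types were set beside this pattern. Members were short (median 1162 bases) and nuclear respiratory chain genes shorter (645 bases), against 2187 bases over the genes of the table with an annotated length (8588 genes, 97.3%). The slope of log2 CPM on transcript length in a library had r = -0.68 with the family mean over the mice. The median r with the family mean was 0.050 among the 2129 other genes with the shortest transcripts (up to 1254 bases) and -0.097 among the 2129 with the longest. Within the shortest class it was 0.61 for the 58 nuclear respiratory chain genes and 0.042 for the other 2071 genes. With each library's slopes on length and on GC content removed, r between the family and respiratory chain means was 0.81. Log2 depth had r = -0.27 with the family mean, and r between the family and the respiratory chain was 0.82 with depth regressed out.

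As to cell types, the family mean had r = -0.33 with 5 adipocyte markers, -0.30 with 4 leukocyte markers, -0.088 with 8 slow fibre markers, -0.076 with 5 endothelial markers, 0.0023 with 3 erythroid markers and 0.46 with the 8 skeletal muscle markers. Without control 14 and control 19 the r was -0.46 for the endothelial and 0.31 for the skeletal muscle markers. For the endothelial markers it was 0.25 among control and -0.36 among thymol mice, and this difference was not tested. These lists varied widely between mice (mean level of the slow fibre markers 2.91 to 9.49 log2 CPM, of the adipocyte markers 2.14 to 7.72) and the group differences of these, -0.23 and -0.0099, were below their SE of 0.53 and 0.54. The endothelial markers had a difference of -0.11 (SE 0.069). All 5 genes were lower in thymol mice, where 49.6% of all genes were higher. Of the 5, 1 had an unadjusted p under 0.05 (limma), against 1.7% of all genes called lower. The part of these cell type markers in the pattern was not tested.

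Within the family the coupling of single genes was loose. The median r over the 2628 pairs of members was 0.15 (0.17 within the large subunit, 0.088 within the small and 0.14 between them), against 0.51 for pairs of nuclear respiratory chain genes, 0.16 for cytosolic ribosomal genes, 0.11 for proteasome genes and -0.0011 for all pairs of genes. The median was 0.21 among the 24 most abundant and 0.076 among the 24 least abundant members, in which counting error takes a larger part. The closest pairs were Mrpl40 with Mrpl44 (0.72), Mrpl49 with Mrps28 (0.70) and Mrpl12 with Mrpl34 (0.70). Mrpl12 (0.71), Mrpl15 (0.70) and Mrpl20 (0.69) followed the mean of the other members most closely. Mrpl35 (-0.16), Mrpl48 (-0.12) and Mrpl9 (-0.025) did so least.

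Mrps12, whose bacterial counterpart sits at the decoding centre, varied most, 6.63 times its counting SD. Its levels were 3.87, 5.36 and 5.94 log2 CPM in control and 4.34, 5.45 and 6.09 in thymol mice, and reads ran from 104 to 547 per mouse. Between 4.95 and 5.36 log2 CPM there was no mouse, with 5 control and 6 thymol mice below this gap and 6 control and 8 thymol mice above it. The gap therefore did not follow treatment, and the log2 fold change was 0.13 with an SE of 0.23. Mrps12 lies on chromosome 7 (28739641 to 28741820, minus strand, GRCm38) and no annotated gene overlaps it. Next in spread came Mrpl41 (SD 0.48, a median of 78 reads), at 2.38, 3.44 and 4.26 log2 CPM in control and 2.76, 3.42 and 4.04 in thymol mice, and Mrps33 (SD 0.39, a median of 30 reads), at 1.59, 2.14 and 2.89 in control and 1.24, 2.16 and 2.70 in thymol mice.

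The genes that build and run the mitochondrial ribosome were examined as well, in lists of translation factors (15 genes in the table), mitochondrial tRNA synthetases (20) and assembly and rRNA modification factors (22). None of the 57 genes passed an adjusted p under 0.05 (limma), 34 had a positive and 23 a negative log2 fold change (49.6% of all genes were positive), and the median was 0.033. At an unadjusted p under 0.05 (limma), 1 was higher and 1 lower, against 1.83% and 1.7% of all genes. Ngrn, a factor for the stability of the organelle's large ribosomal RNA, was at 4.73 ± 0.095 log2 CPM (SD) in the 11 control mice and 4.85 ± 0.13 (SD) in the 14 thymol mice (log2 fold change 0.12, limma, p = 0.0467 before adjustment). Ybey, an RNA processing enzyme of the organelle, was at 3.06 ± 0.30 and 2.79 ± 0.32 log2 CPM in the same order (log2 fold change -0.27, limma, p = 0.0471 before adjustment). The smallest p among translation factors was that of the membrane insertase Oxa1l (log2 fold change 0.096, limma, p = 0.213 before adjustment), and among synthetases that of Sars2 (0.20, limma, p = 0.104 before adjustment). Next in order over the 57 genes were the GTPase Noa1 (0.22) on the higher side, and the tyrosyl-tRNA synthetase Yars2 (-0.18) and the helicase Dhx30 (-0.081) on the lower side.

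The mean of these 57 genes had r = 0.55 with the mean of the family, and it was 0.47 for the assembly factors, 0.43 for the translation factors and 0.19 for the synthetases. Without control 14 and control 19 these values were 0.53, 0.50, 0.22 and 0.32 in the same order, so the order of the translation factors and synthetases turned. Malsu1, an assembly factor of the large subunit, had the highest r among the assembly genes (0.63), Lars2, the leucyl-tRNA synthetase, among the synthetases (0.58), and Mtrf1l, a release factor, among the translation factors (0.41). Some proteins of the mitochondrial ribosome have other symbols, of which Gadd45gip1 (log2 fold change -0.024), Aurkaip1 (0.068), Chchd1 (0.0054), Dap3 (0.15) and Ptcd3 (0.033) were in the table. Their r with the family mean ranged from 0.032 (Ptcd3) to 0.62 (Chchd1), and none passed the unadjusted threshold (limma). Adding them left the difference of the family mean at 0.032.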

How the data were processed

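QuantSeq 3′ libraries from the gastrocnemius of 25 mice were assigned to control or thymol by their treatment label, and mice are named by the last number of the label. The authors mapped the reads to GRCm38 by STAR 2.5.3, obtained gene counts from HTSeq 0.6.1, kept genes with 30 reads in at least 6 samples, applied TMM scaling and deposited log2 CPM. Reads were recovered from the steps between the deposited log2 values, and 100.0% of values lay within 0.01 reads of a whole number. A library had 4463818 to 9463418 reads, and no use of molecular identifiers is stated, so counting SDs cover counting error only.

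limma 3.58.1 (R 4.3.3) was fitted to the log2 values of all 8829 genes for thymol against control with trended moderation, two-sided p and Benjamini-Hochberg adjustment at 0.05, and was tested on simulated data. The p-values set the difference between groups against the spread between mice, which are taken as independent. Nothing says that mice came from separate litters or cages, and the p-values make no allowance for shared ones. Family means are means over genes of the deviation from the gene's own mean over mice. Correlations are descriptions over mice, without p. Positions, transcripts and GC content of the last 500 bases are from GENCODE M21 (GRCm38), and promoters from RefSeq (GRCm38.p6).

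Members and gene lists were chosen with earlier results of these data known. Named members were the 5 of smallest p for each subunit and direction, the 5 highest and 5 lowest in level, the 3 highest and 3 lowest in SD and in correlation with the other members, and Mrps30, Mrps18a, Mrpl12 and Mrpl58, 34 in all, of which those not described lie within the ranges given. Other genes named were the 3 of smallest p in each direction of the mitochondrial translation lists, and the 10 highest and 5 lowest in correlation with the family mean. Genes named for their promoters, correlated pairs or correlation with the respiratory chain were picked once their values had been seen. Alternatives comprised other scalings, filters, models and member lists, and each mouse left out in turn.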

Additional observations from a re-analysis of the deposited data

How the results depend on the processing

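The count of members at an adjusted p under 0.05 (limma) was 0 with each of the 25 mice left out in turn and under the other 10 settings tried. The count at an unadjusted p under 0.05 was 4, between 1 and 5 with a mouse left out, and 0 with the first number of the label as a replicate block. The block estimates rest only on mice whose first number occurs in both groups, so they use fewer mice than the main fit. Whether labels with the same first number mark a pair is not known, and the replicate number at the end of the label differs for every mouse. The 9 such pairs of control and thymol mice had a mean correlation of deviations of -0.028 over the members (from -0.48 to 0.27). It was 0.0019 for the other 145 pairs. As the members are loosely coupled, these values cannot decide the question. The r between the family and the respiratory chain was 0.77 to 0.85 with a mouse left out and 0.74 without the 2 mice farthest from the median. The median log2 fold change, the difference of the family mean, the difference between subunits and the median pairwise r kept their sign under the settings tried for each, with ranges of 0.0055 to 0.051, 0.011 to 0.050, 0.020 to 0.037 and 0.12 to 0.17. With members scaled to unit SD, the difference of the family mean was 0.16 SD. The medians over members and the removal of length and GC slopes were added after the data were seen, and gave differences of the family mean of 0.023 and 0.031.

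Of the 34 named members, 10 changed the sign of their log2 fold change, none of them with an adjusted p under 0.05 (limma) in any setting. With a mouse left out the ranges were -0.025 to 0.087 for Mrpl9, -0.020 to 0.025 for Mrpl15, -0.016 to 0.10 for Mrpl19, -0.013 to 0.079 for Mrpl20, -0.014 to 0.17 for Mrpl41, -0.075 to 0.00037 for Mrpl49, -0.039 to 0.052 for Mrpl58, -0.00098 to 0.033 for Mrps15 and -0.071 to 0.059 for Mrps33. Without control 18, control 19 and thymol 20 the values were -0.032 for Mrpl9, -0.018 for Mrpl15 and 0.00063 for Mrps33. With the block, which uses fewer mice, they were -0.053 for Mrpl20, -0.14 for Mrpl41, 0.059 for Mrpl49, 0.043 for Mrps5 and -0.014 for Mrps15. The cause was not tested. Depth limits Mrps33, Mrpl22 and Mrpl9 most, with medians of 30, 48 and 46 reads per mouse.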

Other observations

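Mrps12, chosen here after its values were seen, followed some of its neighbours on chromosome 7. The 3 genes of the table with the highest r with Mrps12 over the 25 mice were Cacfd1 (0.74) on chromosome 2, Psmd8 (0.71), a proteasome subunit gene, and Fam98c (0.69), and the last 2 start 435 kb and 413 kb from Mrps12 (GRCm38). With the group means removed these values were 0.74, 0.72 and 0.71. Of the 24 genes of the table within 1 Mb, 3 had an r over 0.5, against 0.714% of all genes, and their median r was 0.056. Sars2, a neighbour encoding the mitochondrial seryl-tRNA synthetase, had an r of -0.13. Psmd8 ran from 7.32 to 8.65 log2 CPM and Fam98c from 4.08 to 5.04.

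Among 13 genes for mitochondrial transcription and its regulators, Ppard (log2 fold change -0.23, limma, p = 0.0214 before adjustment) and Mterf2 (0.29, limma, p = 0.0369 before adjustment) had an unadjusted p under 0.05, against 3.53% of all genes, and none an adjusted p under 0.05. Esrra, an oestrogen-related receptor gene, had the highest r with the mean of the mitochondrial ribosomal protein genes on this list (0.48) and Yy1 the lowest (-0.25).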
